A study of Mus musculus with 6 samples.

Results

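The 10 genes described here are protein-coding genes that carry microRNA hairpins inside their introns, and they were taken by symbol from the deposited RNA-seq table of mouse retina. All 10 of the 10 named genes, Trpm3, Ctdsp1, Ctdsp2, Ctdspl, Nfyc, Mcm7, Egfl7, Arpp21, R3hdm1 and Dnm3, were found among the 22731 symbols of the table. The knockout mice (Dicerfl/fl, iCre75+) lacked Dicer1 in rods through the iCre75 transgene, in which a rod opsin promoter drives Cre, and are called conditional knockout or cKO. Their control littermates (Dicerfl/fl, iCre75-) carried the same floxed alleles without the transgene. Both groups were of the background Mixed C57BL/6J - SJL and 4 weeks old, and retinas were collected between 8 and 10 in the morning. There were 3 libraries of each group (cKO replicates 2, 3 and 4 and control replicates 1, 2 and 3), and each library held RNA pooled from 4 mice, whose retinas were homogenized 2 at a time, so the spread is that between pools. Cells of the retina other than rods keep Dicer1 in this model, and the table averages over all of them.

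A microRNA gene that lies within an intron on the strand of its host is usually copied as part of the host transcript. The nuclear enzyme Drosha cuts the hairpin out of the transcript, and Dicer, in the cytoplasm, cuts the hairpin into the mature strand that guides silencing. The host messenger RNA and the mature microRNA therefore share a promoter in many cases, while the Dicer step comes after the hairpin has left the host transcript. The library contains poly(A) RNA and so reads the host messenger, not the mature strand.

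The mature sequences show which hosts carry related microRNAs, since the bases 2 to 8 (the seed, in capitals) set most of the pairing with targets. They are RefSeq records on GRCm38.p6, written 5′ to 3′.

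The Ctdsp hosts carry miR-26 genes with a common seed. Mir26a-2 in Ctdsp2 and Mir26a-1 in Ctdspl give 1 identical mature strand, and Mir26b in Ctdsp1 gives a strand that matches it at 19 of 21 bases.
miR-26a-5p: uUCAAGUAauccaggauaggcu
miR-26b-5p: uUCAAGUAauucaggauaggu

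Arpp21 and R3hdm1 also share a mature strand, from Mir128-2 and Mir128-1. The seed of miR-128-3p occurred in 1 of the 1679 mature mouse strands of the RefSeq table.
miR-128-3p: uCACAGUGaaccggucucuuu

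Nfyc carries 2 hairpins of the miR-30 family in 1 intron, and their mature strands matched at 17 of 22 bases.
miR-30c-5p: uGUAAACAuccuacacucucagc
miR-30e-5p: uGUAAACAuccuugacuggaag

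Mcm7 carries 3 hairpins, of which miR-93 and miR-106b share a seed and miR-25 has another.
miR-93-5p: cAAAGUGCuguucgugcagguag
miR-106b-5p: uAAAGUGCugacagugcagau
miR-25-3p: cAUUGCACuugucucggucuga

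Trpm3 carries miR-204, and its relative Trpm1 carries miR-211 with the same seed, their mature strands matching at 21 of 22 bases. Egfl7 carries miR-126.
miR-204-5p: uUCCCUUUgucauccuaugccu
miR-211-5p: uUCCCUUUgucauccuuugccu
miR-126a-3p: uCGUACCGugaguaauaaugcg

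The hairpins from which an identical mature strand is cut differ outside it, which is shown for the Ctdspl and Ctdsp2 hairpins and for the R3hdm1 and Arpp21 hairpins, with the shared strand in capitals.
Mir26a-1: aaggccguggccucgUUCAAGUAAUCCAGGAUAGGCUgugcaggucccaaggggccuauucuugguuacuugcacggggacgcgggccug
Mir26a-2: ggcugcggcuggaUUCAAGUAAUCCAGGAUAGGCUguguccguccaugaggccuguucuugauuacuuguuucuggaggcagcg
Mir128-1: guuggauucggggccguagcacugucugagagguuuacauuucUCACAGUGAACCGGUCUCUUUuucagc
Mir128-2: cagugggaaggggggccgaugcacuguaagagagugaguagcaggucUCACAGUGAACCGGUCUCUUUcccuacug

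In GENCODE M21 on GRCm38, which is not the mm9 build of the authors and serves only to place the genes, 17 microRNA genes lay within the 10 genes. Of these, 13 lay on the strand of the gene and 4 on the other strand. Mir204 lay in intron 6 of 24 of the main Trpm3 transcript (chr19:22750605-22750672), an intron of 33462 bp in a gene that spans 856365 bp. Mir26b lay in intron 4 of 6 of Ctdsp1 (chr1:74394310-74394394), Mir26a-2 in intron 5 of 7 of Ctdsp2 (chr10:126995530-126995613) and Mir26a-1 in intron 5 of 7 of Ctdspl (chr9:119031796-119031885), with 2 introns after it in each of the 3 genes. Mir30c-1 and Mir30e lay in intron 5 of 9 of Nfyc, on chromosome 4, and Mir25, Mir93 and Mir106b in intron 13 of 14 of Mcm7, an intron of 748 bp on chromosome 5. Mir126a lay in intron 7 of 9 of Egfl7 (chr2:26591357-26591429), Mir128-1 in intron 19 of 26 of R3hdm1 (chr1:128202361-128202430) and Mir128-2 in intron 19 of 20 of Arpp21 (chr9:112118636-112118711). Of the 13 same-strand hairpins, 11 overlapped no exon of a protein-coding transcript, and the exceptions, Mir26a-2 and Mir546, both lay in Ctdsp2.

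Dnm3 goes against the label. Its microRNAs Mir199a-2 and Mir214 lay in intron 14 of 20 but on the opposite strand, where the noncoding gene Dnm3os is the known source of both. Dnm3os was listed at 0.0617, 0.0246 and 0.0167 RPKM in cKO libraries and at 0.0403, 0.0324 and 0.0311 RPKM in control libraries, against about 16 to 17 RPKM for Dnm3. Dnm3 is therefore described as a gene with microRNAs on its other strand.

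RPKM, the unit of the table, divides the reads of a gene by its length in kilobases and by the depth of the library. The smallest steps of the values, taken as 1 read, gave the depth of each library to the nearest 100000. The cKO libraries held 24500000 (replicate 2), 35800000 (replicate 3) and 15100000 (replicate 4) reads, and the control libraries 34400000 (replicate 1), 39000000 (replicate 2) and 40500000 (replicate 3). The 10 rod marker genes were all detected, with summed levels between 24335 and 26829 RPKM in cKO and between 25377 and 30214 RPKM in control retinas. Dicer1 itself was at 8.02, 7.06 and 7.90 RPKM in cKO libraries and 8.48, 8.77 and 8.33 RPKM in control libraries (limma adjusted p = 0.931). All cKO values lay below the control values, as in 5.78% of the genes tested. The Dicer1 level counts the whole gene and also cells without Cre, and it therefore says little about the genotype.

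None of the 10 host genes passed the test between cKO and control retinas. The test was limma on log2(RPKM + 0.5) over the 12599 genes whose mean reached 1 RPKM, which included all 10, with Benjamini-Hochberg adjustment over all of these genes. At an adjusted p of 0.05 it called 0.00794% of the genes tested, which is 1 gene, Prm1. The adjusted p of the hosts lay between 0.848 and 0.997, 7 of the 10 had an upward and 3 a downward estimate in cKO, and the median log2 fold change was 0.015, against -0.0050 over all genes tested. Their 95% intervals all lay within 0.5 on the log2 scale in either direction, with the outermost bounds at -0.44 for Mcm7 and 0.44 for Egfl7. The groups did not overlap for 2 hosts: R3hdm1, with its 3 cKO libraries on top, and Mcm7, with them at the bottom. Over all genes tested 11.7% did not overlap, 5.91% with cKO on top and 5.78% with cKO at the bottom. Mcm7 was also the 1 host whose limma p was under 0.05 before adjustment, as it was for 5.71% of the genes tested (2.65% upward and 3.06% downward).

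**Figure D1:**
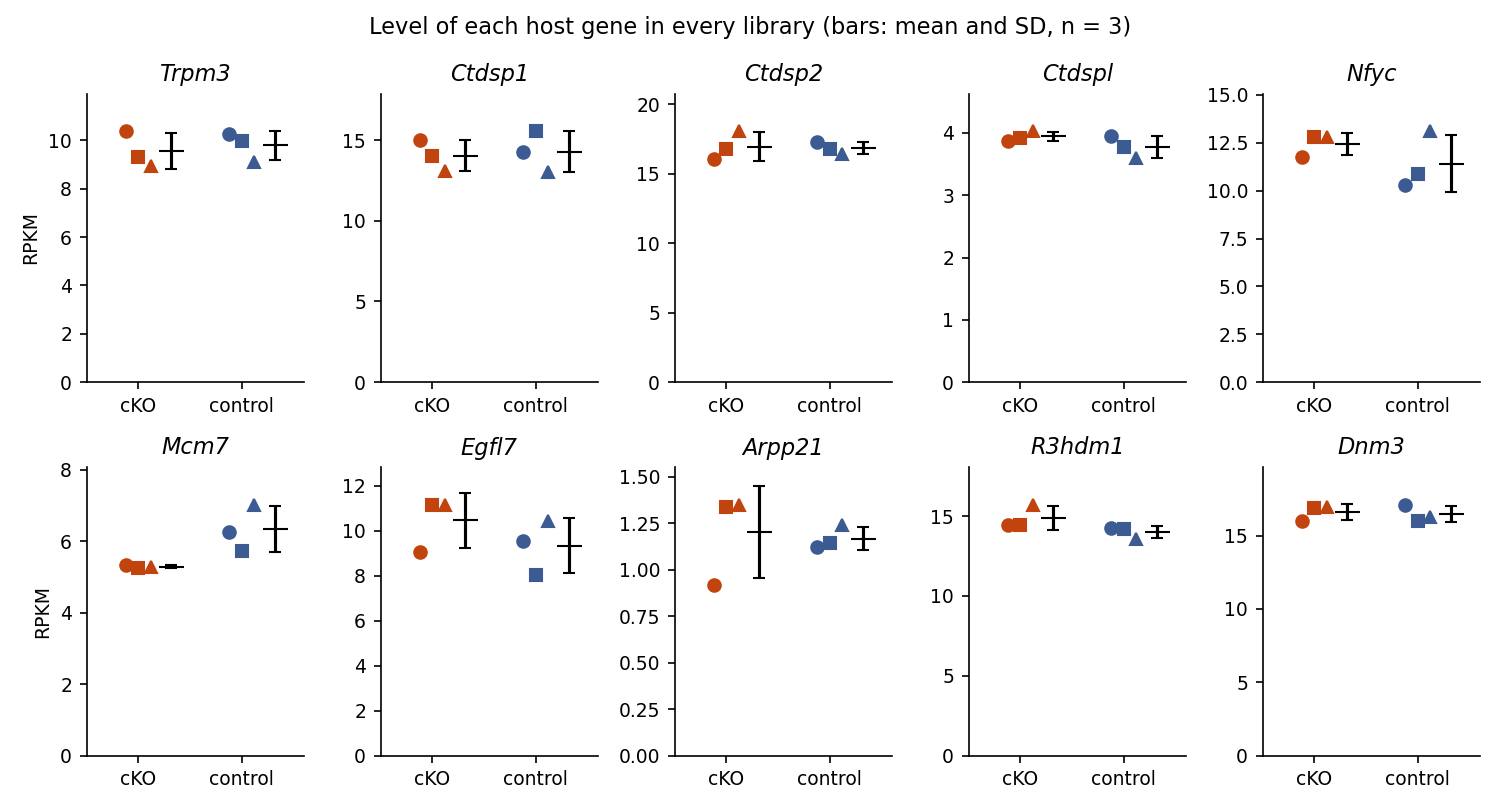
Level of each of the 10 host genes, in RPKM on linear axes that start at 0, in the 3 cKO libraries (left; circle, square and triangle for replicates 2, 3 and 4) and the 3 control libraries (right; replicates 1, 2 and 3), with bars for the mean and SD. The groups overlap in 8 genes, all cKO points lie below the control points for Mcm7, and all lie above them for R3hdm1.

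**Figure D2:**
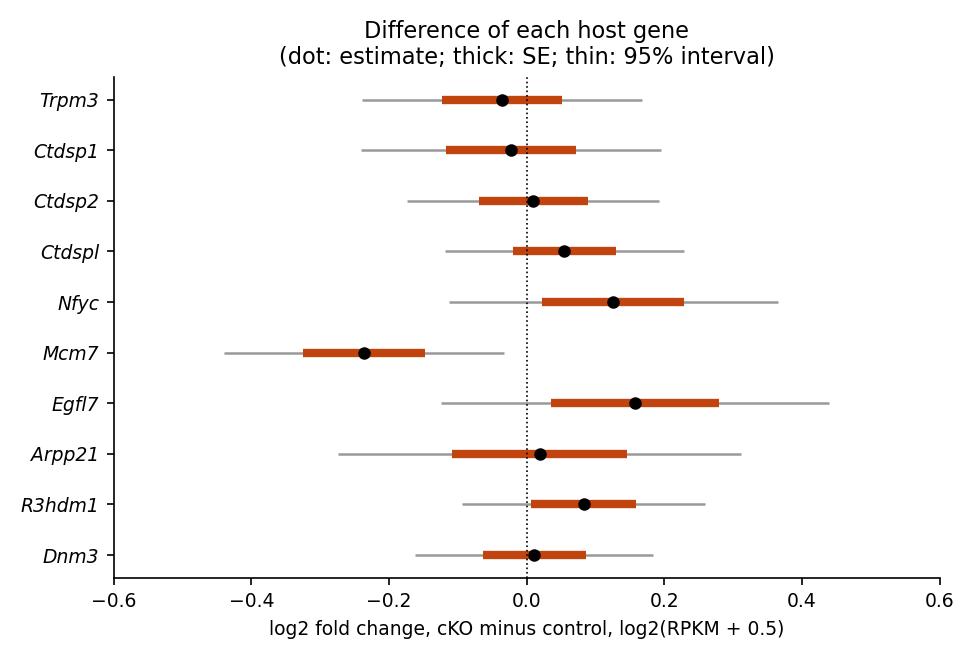
Log2 fold change of each host gene, cKO minus control, on the log2(RPKM + 0.5) scale, with its SE as a thick bar and its 95% interval as a thin line. The 95% interval of Mcm7, from -0.44 to -0.033, lies below 0 before adjustment over all genes, and the other 9 intervals include 0.

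The levels of the hosts covered a wide range in whole retina. Averaged over the 6 libraries, Ctdsp2 (16.9 RPKM) and Dnm3 (16.5 RPKM) were the most abundant, and their ranges overlapped. R3hdm1 (14.4 RPKM) and Ctdsp1 (14.2 RPKM) came next and could not be ranked, since each was higher in 3 of the 6 libraries. Nfyc followed at 11.9 RPKM, above Egfl7 (9.89 RPKM) in all 6 libraries though their ranges overlapped, and Egfl7 and Trpm3 (9.66 RPKM) again changed places between libraries. Mcm7 (5.82 RPKM), Ctdspl (3.86 RPKM) and Arpp21 (1.18 RPKM) were lower, each with a range apart from that of the gene above it. Arpp21 stood at percentile 2.58 of the levels of all genes tested, and Ctdsp2 at percentile 69.1. Genes with a mean under 1 RPKM are left out of this ranking, and Arpp21 lies just above that cut.

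The Ctdsp genes encode small phosphatases that act on the tail of RNA polymerase II and work with the repressor REST, which keeps neuronal genes silent in cells that are not neurons. Ctdsp1 was at 15.0, 14.04 and 13.1 RPKM in cKO libraries and at 14.3, 15.6 and 13.0 RPKM in control libraries. Ctdsp2 was at 16.1, 16.8 and 18.1 RPKM in cKO libraries, against 17.3, 16.8 and 16.4 RPKM in control libraries. In both genes the groups overlapped, and the log2 fold changes were -0.02 ± 0.09 and 0.01 ± 0.08 (SE, limma adjusted p = 0.997 for each). These estimates allow for Ctdsp1 between 84.7% and 114% of the control level (95% interval), and for Ctdsp2 between 88.7% and 114%.

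Ctdspl, the third phosphatase, was less abundant and varied little, at 3.88, 3.92 and 4.03 RPKM in cKO libraries and 3.95, 3.78 and 3.61 RPKM in control libraries. Its highest values were those of 1 cKO and 1 control library, and the groups overlapped (log2 fold change 0.05 ± 0.07 SE, limma adjusted p = 0.997). Added up, the 3 miR-26 hosts stood at 34.95 ± 0.241 RPKM in cKO and 34.9 ± 1.64 RPKM in control retinas (SD, n = 3 each). In the partner list, which held REST, its corepressors and 2 further phosphatase genes, 0 of 10 passed in either direction, with 5 upward and 5 downward estimates. Kdm1a, a histone demethylase of the REST complex and the most abundant of them, was at 24.9, 27.3 and 31.2 RPKM in cKO libraries and 27.7, 23.9 and 29.1 RPKM in control libraries. Hdac2, a histone deacetylase, was at 17.8, 19.1 and 24.4 RPKM in cKO and 20.5, 18.8 and 21.9 RPKM in control libraries, and the corepressor Rcor3 at 15.0, 16.3 and 16.2 RPKM in cKO and 13.8, 15.9 and 15.8 RPKM in control libraries. In all 3 the groups overlapped.

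R3hdm1 and Arpp21 encode related proteins with an R3H domain, which binds single-stranded nucleic acid, and ARPP21 is known from striatal neurons. R3hdm1 was at 14.5, 14.4 and 15.7 RPKM in cKO libraries and at 14.3, 14.2 and 13.6 RPKM in control libraries. All cKO values lay above the control values, by as little as the gap between 14.44 and 14.27 RPKM. Its log2 fold change of 0.08 ± 0.08 (SE) had a limma adjusted p of 0.994. An exact permutation test, two-sided, gave p = 0.1, and 3 against 3 libraries cannot give less.

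Arpp21 was at 0.916, 1.34 and 1.35 RPKM in cKO libraries and at 1.12, 1.14 and 1.24 RPKM in control libraries. The lowest and the highest value both came from the cKO group, whose coefficient of variation of 20.5% exceeded the 5.96% that counting error gives for its 219 to 514 reads per cKO library (limma log2 fold change 0.02 ± 0.13 SE, adjusted p = 0.997). R3hdm1 stood between 10.8 and 15.8 times the Arpp21 level per kilobase in every library. Of the 4 genes listed with them, the R3H genes R3hdm2 and R3hcc1 and the endosulfine family genes Arpp19 and Ensa, 0 passed. R3hdm2, the most abundant R3H gene of the list, was at 63.4, 63.6 and 59.3 RPKM in cKO and 58.2, 60.2 and 59.3 RPKM in control libraries. Ensa, whose product inhibits the phosphatase PP2A in mitosis, was at 52.6, 53.6 and 63.9 RPKM in cKO and 60.3, 54.1 and 66.5 RPKM in control libraries, and R3hcc1 at 19.1, 19.7 and 20.7 RPKM in cKO and 17.4, 19.3 and 20.7 RPKM in control libraries.

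Nfyc encodes the C subunit of NF-Y, the trimeric factor that binds the CCAAT box of many promoters. It was at 11.8, 12.8 and 12.8 RPKM in cKO libraries and at 10.3, 10.8 and 13.1 RPKM in control libraries. Control replicate 3 was the highest of all, above the 3 cKO libraries, so the groups overlapped (log2 fold change 0.13 ± 0.10 SE, limma adjusted p = 0.984). Without control replicate 3 the log2 fold change was 0.23, and without control replicate 1 it was 0.058. Its partner subunits did not pass either: Nfya was at 14.4, 13.8 and 16.4 RPKM in cKO and 15.2, 14.7 and 17.6 RPKM in control libraries, and Nfyb at 9.53, 10.0 and 14.2 RPKM in cKO and 11.1, 9.46 and 11.7 RPKM in control libraries.

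Mcm7, a subunit of the MCM helicase that unwinds DNA ahead of the replication fork, had the smallest p of the 10. It was at 5.34, 5.26 and 5.27 RPKM in cKO libraries, against 6.27, 5.74 and 7.02 RPKM in control libraries. All cKO values lay below the control values, at 83.4% of the control mean. The log2 fold change was -0.24 ± 0.09 (SE), with an unadjusted limma p of 0.0280 and an adjusted p of 0.848, and the exact permutation test (two-sided) gave p = 0.1. Without control replicate 3, the highest library, the log2 fold change was -0.17 (limma adjusted p = 0.960, with a range from 0.215 to 1.00 over all settings tried). The cKO libraries varied by 0.863% around their mean, less than the 5.95% that counting error gives for their 191 to 452 reads, while the control libraries varied by 10.2% against a counting error of 4.19%.

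None of the other helicase genes passed. Of the 6 listed, 5 were tested, 4 with an upward and 1 with a downward estimate in cKO, and the groups overlapped in all 5. Mcmbp, which binds the helicase, was at 6.42, 6.25 and 7.003 RPKM in cKO and 6.35, 6.05 and 6.99 RPKM in control libraries. Mcm2 was at 4.27, 4.34 and 3.04 RPKM in cKO and 4.25, 3.77 and 4.47 RPKM in control libraries, and Mcm4 at 3.31, 3.92 and 4.25 RPKM in cKO and 3.23, 3.35 and 3.99 RPKM in control libraries. Whether the Mcm7 difference was unlike theirs was not tested. Of the 8 proliferation markers, 2 reached 1 RPKM on average, Ccna2 and Pcna, and the summed level of the list was between 14.5 and 18.4 RPKM in cKO and between 16.1 and 19.0 RPKM in control libraries. The division marker Mki67 was at 0.0375 RPKM or less in every library. Exons of Mcm7 overlap those of Ap4m1 over 321 bp and those of Cops6 over 64 bp, both on the other strand, and the protocol keeps no strand. Ap4m1 was at 3.26, 3.20 and 3.31 RPKM in cKO and 3.23, 4.08 and 3.13 RPKM in control libraries. Cops6, far more abundant, was at 56.9, 67.9 and 64.3 RPKM in cKO and 62.1, 57.0 and 76.6 RPKM in control libraries. The control libraries had the same order in Cops6 as in Mcm7, and the cKO libraries had the reverse order. The cKO values of Mcm7 varied by less than counting error, so their order is not resolved and nothing is read from it. The groups of Cops6 overlapped, and the part of Ap4m1 and Cops6 in the Mcm7 values was not tested. Exons of other genes also overlapped those of Egfl7 (Gm20532 over 264 bp on the same strand), Trpm3 (C330002G04Rik over 351 bp), Arpp21 (2900079G21Rik over 580 bp) and Dnm3 (Gm10176 over 355 bp), the last 3 on the other strand, so reads there cannot be told apart.

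**Figure D3:**
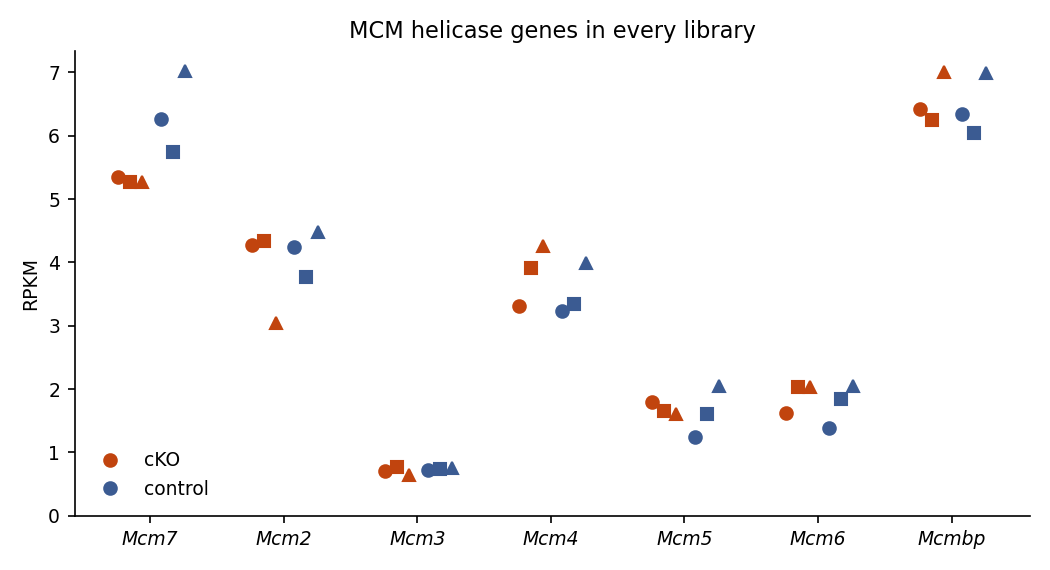
Level of Mcm7 and of 6 other genes of the MCM helicase list in every library, in RPKM on a linear axis from 0, with cKO libraries left and control libraries right for each gene and symbols for replicates as in the plot of the host genes. The cKO points of Mcm7, between 5.26 and 5.34 RPKM, lie below its control points, and in the other genes the groups overlap.

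Trpm3 encodes a calcium-permeable channel opened by heat and by the steroid pregnenolone sulfate, and miR-204 is known for its high level in the pigment epithelium and for its role in eye development. Trpm3 was at 10.4, 9.30 and 8.94 RPKM in cKO libraries and at 10.3, 9.97 and 9.12 RPKM in control libraries. The highest and the lowest value both came from cKO libraries, and the groups overlapped (log2 fold change -0.04 ± 0.09 SE, limma adjusted p = 0.997), which allows for between 84.7% and 112% of the control level. These values rest on between 1450 and 4164 reads, whose counting error of at most 2.63% is smaller than the spread of 7.82% in cKO and 6.14% in control libraries.

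The 10 pigment epithelium markers, all detected, summed to 343, 267 and 237 RPKM in cKO libraries and to 281, 320 and 229 RPKM in control libraries. The 3 libraries with the most Trpm3, cKO replicate 2 and control replicates 1 and 2, were also the 3 with the highest marker sum. The markers did not all go with this order. The pigment genes Dct and Pmel, which carry much of the sum, were at 117 and 68.7 RPKM in cKO replicate 2 and at 124 and 63.9 RPKM in control replicate 2. In that control library the retinoid cycle gene Rpe65 (8.05 RPKM), the thyroxine carrier gene Ttr (74.7 RPKM) and the retinol acyltransferase gene Lrat (2.13 RPKM) were at their lowest of the 6 libraries. Ttr was the largest term of the sum, at 100 RPKM on average. Control replicate 1 was close to cKO replicate 3, which had less Trpm3, in Dct (79.8 against 79.4 RPKM) and Pmel (36.4 against 37.3 RPKM). Its Ttr value was the highest of the 6 libraries (120 RPKM, against 110 RPKM in cKO replicate 3). The part of pigment epithelium in the Trpm3 level was not tested. In bulk tissue fewer cells of a type and less RNA per cell cannot be told apart. The 3 genes whose centred log2 values lay nearest to those of Trpm3 over the 6 libraries were Phf15, Prdm2 and Rsbn1l. Their root-mean-square differences were 0.012, 0.021 and 0.021, against a median of 0.154 over all genes tested. Being picked as the nearest of all genes tested, they lie under the median by choice. The root mean square of the centred Trpm3 values themselves was 0.080. Trpm1, the light-response channel of ON bipolar cells, was higher than Trpm3, at 42.6, 38.9 and 38.5 RPKM in cKO and 35.0, 42.4 and 33.6 RPKM in control libraries, and did not pass (limma adjusted p = 0.991). Of the channel list 3 of 6 genes were tested and 0 passed. Trpm7 was at 4.39, 4.13 and 5.69 RPKM in cKO and 5.15, 5.21 and 4.74 RPKM in control libraries. Trpm2 was at 1.55, 1.56 and 1.496 RPKM in cKO and 1.49, 1.31 and 1.28 RPKM in control libraries. All its cKO values lay above the control values, as in 5.91% of the genes tested.

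**Figure D4:**
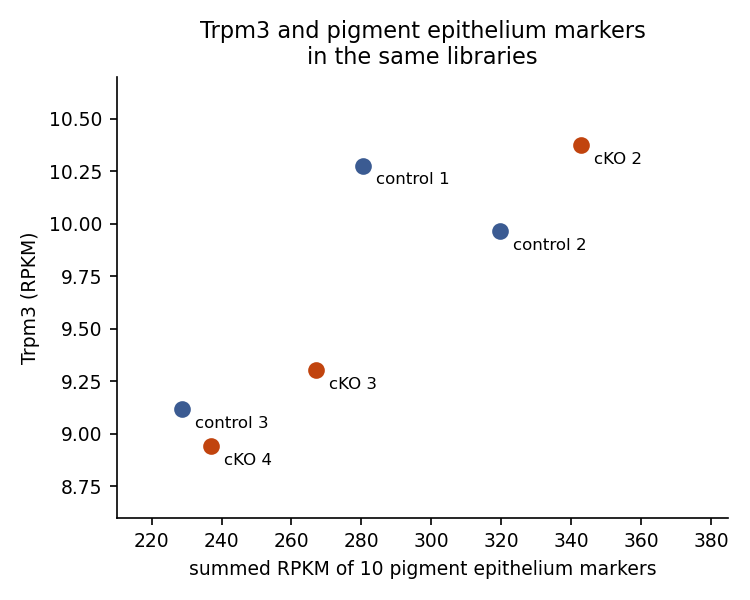
Trpm3 level in RPKM (vertical axis, not from 0) against the summed RPKM of 10 pigment epithelium markers (horizontal axis, not from 0), 1 point per library, with cKO libraries in orange-red and control libraries in blue. The cKO points span 237 to 343 RPKM of marker sum and the control points 229 to 320 RPKM. The 3 points highest in Trpm3 have the 3 highest marker sums, but the single markers differ between them. Rpe65, Ttr and Lrat were lowest in control replicate 2. In control replicate 1, Dct and Pmel were close to their values in cKO replicate 3, and Ttr was at its highest.

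Egfl7 encodes a protein that endothelial cells secrete into the vessel wall, and its microRNA miR-126 is a hallmark of endothelium. Egfl7 was at 9.05, 11.2 and 11.1 RPKM in cKO libraries and at 9.54, 8.01 and 10.4 RPKM in control libraries. Replicates 3 and 4 of cKO held the highest values and cKO replicate 2 lay below 2 control libraries, so the groups overlapped. The log2 fold change of 0.16 ± 0.12 (SE, limma adjusted p = 0.980) was the largest upward estimate of the 10, and it was 0.058 without control replicate 2 and 0.25 without cKO replicate 2. The 13 endothelial markers were all detected, and their summed level was between 91.1 and 95.8 RPKM in cKO and between 91.3 and 94.1 RPKM in control libraries, and of the 12 tested 0 passed. Mural cell markers summed to between 28.0 and 46.5 RPKM in cKO and between 32.2 and 39.6 RPKM in control libraries. Nearest to Egfl7 in profile were Irx6 and LOC319574, with root-mean-square differences of 0.031 and 0.037 against a median of 0.178 over all genes tested. They too lie under the median by choice, and the root mean square of the centred Egfl7 values themselves was 0.163.

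The partner list of Egfl7 held genes of the Notch pathway, with which EGFL7 is known to interfere, the paralog Egfl8 and the matrix enzyme gene Lox. Of the 6 listed, 3 were tested and 0 passed. The Notch ligand gene Jag1 was at 14.7, 13.0 and 12.9 RPKM in cKO libraries, against 15.4, 15.6 and 15.1 RPKM in control libraries (log2 fold change -0.18 ± 0.08 SE, limma adjusted p = 0.883). All cKO values of Jag1 lay below the control values, as in 5.78% of the genes tested. Notch1 was at 5.04, 4.86 and 5.04 RPKM in cKO and 5.00, 5.67 and 4.20 RPKM in control libraries, and Egfl8 at 2.54, 2.85 and 3.21 RPKM in cKO and 2.57, 2.67 and 3.17 RPKM in control libraries.

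Dnm3 encodes dynamin 3, a GTPase that pinches off membrane vesicles and is enriched in neurons. It was at 16.0, 16.9 and 17.0 RPKM in cKO libraries and at 17.1, 16.0 and 16.3 RPKM in control libraries, on 1931 to 4962 reads. The groups overlapped over nearly their whole range, with a log2 fold change of 0.01 ± 0.07 (SE, limma adjusted p = 0.997) and an interval from 89.4% to 114% of the control level. The paralogs Dnm1 and Dnm2 had all cKO values above the control values, as in 5.91% of the genes tested, and did not pass. Dnm1, the main dynamin of synapses, was at 205, 225 and 207 RPKM in cKO and 190, 202 and 181 RPKM in control libraries (limma adjusted p = 0.954). Dnm2 was at 22.6, 23.5 and 23.9 RPKM in cKO and 21.8, 22.1 and 19.6 RPKM in control libraries (limma adjusted p = 0.941). Dnm1l, which divides mitochondria, was at 18.1, 18.7 and 19.3 RPKM in cKO and 19.4, 18.3 and 18.1 RPKM in control libraries. In the partner lists of all these hosts, 0 of the few genes tested had a limma p under 0.05 before adjustment, against 5.71% of all genes tested, and nothing particular to the lists is read from this.

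The table also lists hairpins as genes of their own, and 15 of the 17 within the 10 genes were found there. Together they held 10, 17 and 5 reads in cKO libraries and 21, 23 and 11 reads in control libraries, which is 4.04 ± 0.719 reads per 10000000 in cKO and 4.90 ± 1.90 in control libraries (SD, n = 3; exact two-sided permutation p = 0.6). The 3 hairpins in the short Mcm7 intron held 63 of these 87 reads. Mir25 had 2, 7 and 4 reads in cKO libraries and 5, 5 and 2 in control libraries, and Mir106b 6, 2 and 0 in cKO and 3, 10 and 3 in control libraries. Mir93 had 0, 6 and 0 reads in cKO and 5, 2 and 1 in control libraries, and Mir26b 0, 2 and 0 in cKO and 2, 2 and 0 in control libraries. Mir26a-1 had 1 read in cKO and 1 in control libraries, and Mir26a-2 and Mir128-1 had 0 in cKO and 1 each in control libraries. Mir126a had 1, 0 and 1 reads in cKO and 4, 2 and 2 in control libraries, and Mir204 had 0 in all cKO libraries and 0, 1 and 3 in control libraries. In every library 0 reads were listed for 6 hairpins (Mir128-2, Mir30c-1, Mir30e, Mir199a-2, Mir214 and Mir546). This allows up to 0.158 listed reads per 10000000 (3 reads over all 6 libraries). Mir546 and Mir26a-2 overlap exons of Ctdsp2 (mean 16.9 RPKM), and how reads that fit several genes were counted is not given. Their listed counts therefore set no limit on transcription there. At these counts a difference at the hairpins was not detectable, and reads of a hairpin and of the host intron or exon around it cannot be told apart.

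The 10 genes are a small share of the hosts that the table holds. In GENCODE M21, 777 of its symbols were protein-coding genes with at least 1 microRNA gene on the same strand, among them 9 of the 10 genes, all but Dnm3, and 644 of these hosts were tested. Of the 777, 612 had a hairpin outside every exon of their protein-coding transcripts. A microRNA among the RefSeq microRNA records was held by 531 of the 777. None of the 644 passed, 349 with an upward and 295 with a downward estimate in cKO, and their median log2 fold change was 0.011, against -0.0050 over all genes tested. Before adjustment 28 hosts, or 4.35%, had a limma p under 0.05, against 5.71% of the genes tested. In 53 hosts every cKO library stood above every control library (8.23%, against 5.91% of the genes tested), and below in 32 (4.97%, against 5.78%). The hosts' median did not stay above that of all genes in every fit: without cKO replicate 2 the hosts stood at 0.0232 and all genes at 0.0234, and without control replicate 3 the hosts stood at 0.0165 and all genes at 0.0195.

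**Figure D5:**
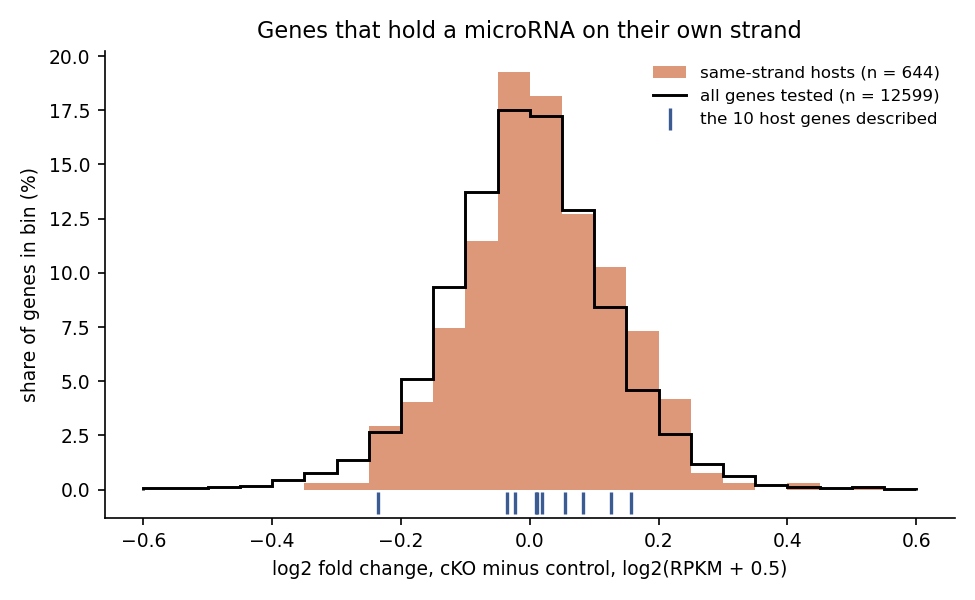
Share of genes, in percent, in bins of 0.05 of the log2 fold change (cKO minus control, log2(RPKM + 0.5)) for the 644 tested hosts with a microRNA on their own strand (filled) and for all 12599 genes tested (line), with ticks for the 10 host genes. The axis runs from -0.6 to 0.6, and 63 of the genes tested lie outside it. The filled shape lies above the line from 0.1 to 0.25 (7.30% against 4.61% in the bin from 0.15 to 0.2). It lies below the line from -0.2 to -0.05 (7.45% against 9.34% in the bin from -0.15 to -0.1). Other bins go the other way: it lies above the line from -0.25 to -0.2 (2.95% against 2.67%) and below it from 0.25 to 0.35 (0.776% against 1.17% in the bin from 0.25 to 0.3). It is also above from -0.05 to 0 (19.3% against 17.5%) and below under -0.25 (0.311% against 1.37% in the bin from -0.3 to -0.25).

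The 5 hosts with the smallest p in each direction show how far a host was from passing. Col27a1, a collagen gene with Mir455 in an intron, was at 2.37, 2.59 and 3.05 RPKM in cKO libraries and at 1.74, 1.85 and 1.59 RPKM in control libraries (log2 fold change 0.50 ± 0.11 SE, limma adjusted p = 0.502). Dmpk, the kinase gene of myotonic dystrophy with Mir3100, was at 9.99, 10.8 and 11.6 RPKM in cKO and 9.20, 8.51 and 8.08 RPKM in control libraries, and the small heat shock gene Hspb6 at 98.4, 113 and 123 RPKM in cKO and 86.5, 70.7 and 91.0 RPKM in control libraries. Mast1, a kinase gene, and Sidt2, a gene of a lysosomal membrane protein, had log2 fold changes of 0.25 and 0.25. The microRNA gene within Mast1 overlaps an exon and is not among the RefSeq microRNA records. In these 5 genes every cKO value lay above the control values, as in 5.91% of all genes tested, but they were picked by smallest p, which favours this.

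In the other direction stood Bcl2, whose product restrains apoptosis and which holds Mir3473f, at 1.44, 1.16 and 1.26 RPKM in cKO libraries and 1.89, 1.72 and 1.70 RPKM in control libraries (log2 fold change -0.35 ± 0.10 SE, limma adjusted p = 0.758). Sp3, a transcription factor that binds GC boxes, was at 8.39, 7.92 and 8.36 RPKM in cKO and 9.76, 9.62 and 9.70 RPKM in control libraries. Mcm7 came next, followed by Rin2, a regulator of Rab5, and Ubn2, at log2 fold changes of -0.21 and -0.24. In these 5 genes every cKO value lay below the control values, as in 5.78% of all genes tested, and they were picked by smallest p in the same way. The microRNA gene within Ubn2 overlaps an exon, and those within Sp3 and Rin2 are not among the RefSeq microRNA records. Across the 10 genes named from this list the limma adjusted p ran from 0.502 to 0.870.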

How the data were processed

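The deposited table holds RPKM values per gene for 6 poly(A) RNA libraries of mouse retina. Per the submitters' processing notes the authors used GSNAP, HTSeq and mm9, and give no versions. Which annotation and gene lengths were used, and what was done with reads of several matches, is not given in the sources used here. Per the labels' protocols the cDNA synthesis kept no strand. All sample columns were used as deposited. Reads per library and per host gene were worked back from the steps of the RPKM values, using the lengths of microRNA and small nucleolar RNA genes in RefSeq (a value counted as whole within 0.02 reads and the rounding of the table). Between 96.8% and 98.0% of the values above 0 of these genes were then whole.

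The main test was limma 3.58.1 (R 4.3.3) on log2(RPKM + 0.5), with no covariate and the variance following the level, for genes whose mean reached 1 RPKM, with two-sided p-values adjusted by Benjamini-Hochberg at a threshold of 0.05. It was checked on simulated data. An exact permutation test was added for single host genes. The pseudocount makes fold changes of low genes smaller. Table symbols were matched to GENCODE M21 as they are (20384) or through 1 RefSeq synonym (1906 more). All 10 host genes are named; of each partner list, every gene past the threshold and the 3 most abundant; of all same-strand hosts, the 5 with the smallest p in each direction; for Trpm3 and Egfl7, the 3 nearest profiles, of which 1 is not reported here. The host genes, lists and rules were chosen with earlier results of these data known. No label says that libraries came from separate litters. Intervals from read counts cover counting error only.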

Additional observations from a re-analysis of the deposited data

How the results depend on the processing

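Of 138 values of the 10 host genes under 14 other settings, 0 passed an adjusted p of 0.05 and 120 kept the direction; 5 genes never turned (Ctdspl, Nfyc, Mcm7, Egfl7 and R3hdm1). The lowest adjusted p among them was 0.215, for Mcm7 in the replicate block. The cause of the turns was not tested. With 1 library left out, the log2 fold change ran from -0.095 to 0.0073 for Trpm3, from -0.085 to 0.038 for Ctdsp1, from -0.035 to 0.047 for Ctdsp2, from -0.047 to 0.15 for Arpp21 and from -0.0079 to 0.038 for Dnm3. In the replicate block over the replicates 2 and 3 that both groups share (4 libraries, 1 residual degree of freedom), Trpm3 stood at 0.042, Ctdsp1 at 0.026, Ctdsp2 at -0.018 and Arpp21 at -0.067, and the same 4 libraries without the block gave the same values. That block called 86 genes higher and 106 lower, 1 of them a same-strand host, where those libraries without it called 1 and 0. The numbers are shared by 2 pairs only and no label says they mark a litter or day. Replicate 2 minus replicate 3 in cKO correlated across genes with the same difference in control libraries (r = 0.475). Pairs with different numbers were not compared, so this value cannot say whether same-numbered libraries belong together. Genes called higher were 3 with median-of-ratios scaling, 2 with a mean of at least 5 RPKM and 2 with no variance trend, and 2 were called lower with no filter on low values. The filter at 5 RPKM left out Ctdspl and Arpp21, so they have no value there. Depth was as low as 191 reads for Mcm7 and 219 reads for Arpp21 in a library.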
